A study of Mus musculus with 23 samples.

Results

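The genes described here are 41 members of glucose metabolism, out of 18876 genes in the count table of hippocampal microglia: 4 hexose transporters, 3 hexokinases, 7 enzymes of upper and 6 of lower glycolysis, 4 enzymes that set fructose 2,6-bisphosphate, 4 lactate enzymes and transporters, 8 genes of pyruvate entry into mitochondria, 4 enzymes of the pentose phosphate pathway and the mitochondrial glycerol phosphate dehydrogenase. They were picked by symbol from a list of names, and all 41 were present in the table and passed the filter on low counts, among 18759 genes tested. Glycolysis splits glucose into pyruvate in the cytosol and yields ATP without oxygen. Pyruvate is then either reduced to lactate, which leaves the cell through monocarboxylate transporters, or carried into mitochondria and oxidised by pyruvate dehydrogenase. The pentose phosphate pathway branches off at glucose 6-phosphate and supplies NADPH and ribose. Microglia, the resident macrophages of the brain, use both glucose oxidation and lactate production, and macrophages in general are known to shift towards lactate production when activated.

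Microglia were isolated with CD11b magnetic beads from the hippocampi of female mice on a mixed 129S and C57BL/6J background, and their poly(A) RNA was sequenced. Every mouse carried Slc11a2 fl/fl and Cx3cr1 Cre-ERT2+/-, so that Cre was driven by Cx3cr1, a gene of microglia and other macrophages, and became active with tamoxifen. KD mice received 4 mg of tamoxifen per day by gavage for 5 days at 5 to 6 months of age, which removes exons of Slc11a2, the gene of the iron transporter DMT1. Control mice of the same genotype received corn oil, so tamoxifen and the knockdown cannot be told apart. Within each treatment, hemizygous APP/PS1 mice, a transgenic model of amyloid deposition, were set against WT littermates, and tissue was taken at 15 to 18 months. The 22 libraries used were 6 Control WT, 6 Control APP/PS1, 5 KD WT and 5 KD APP/PS1. A further Control APP/PS1 library, number 10, was removed by the study as an outlier and is given apart.

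Total counts ran from 31128600 to 54872500 per library. The summed level of 11 microglial marker genes was 40731 to 47593 CPM (counts relative to the library total, with TMM scaling) in Control WT and 32307 to 37149 CPM in Control APP/PS1 libraries, and no marker on the list was at 0. Of these 11 genes, 1 rose and 4 fell in Control APP/PS1 against Control WT, and 1 rose and 6 fell in KD APP/PS1 against KD WT. Of the lists for other cells, in Control mice 10 of 12 markers of choroid plexus, 7 of 8 of border-associated macrophages, 5 of 8 of neutrophils and monocytes, 5 of 8 of oligodendrocytes and 5 of 10 of endothelium and pericytes fell, and 1 of the last list rose. In KD mice 0, 4, 1, 3 and 4 markers of these lists fell, in the same order, and 0 rose. Several lists for other cells also summed lower in APP/PS1: markers of border-associated macrophages summed to 433 to 927 CPM in Control WT and 189 to 411 CPM in Control APP/PS1, and those of oligodendrocytes to 739 to 2822 and 365 to 979 CPM. Lymphocyte markers summed to 248 to 359 CPM in Control WT and 309 to 387 CPM in Control APP/PS1. Yet of the 9 lymphocyte markers tested in Control mice 0 rose and 1 fell, with a median log2 fold change of -2.92. Of 10 astrocyte markers 1 rose and 0 fell, and of 9 neuronal markers 0 rose and 2 fell in Control mice. Choroid plexus markers summed to 1998 CPM in Control WT library 12 and 1031 CPM in library 15, against at most 5.41 CPM in Control APP/PS1, and to between 90.8 and 810.3 CPM in the 6 KD libraries numbered 18 to 23. In a fit with the choroid level as a term, the counts of members called were 19 higher and 3 lower in Control mice and 19 higher and 2 lower in KD mice, as without it. Without Control WT libraries 12 and 15 together, 17 were higher and 3 lower in Control mice, with the calls of Slc2a3 and Pdk3 lost. These counts of calls do not measure what other cells contributed to each gene, and the part of the other cell types in the results was not tested. In bulk RNA, fewer cells of a type and less RNA per cell cannot be told apart. KD libraries were numbered 1 to 4 and 18 to 23 and Control libraries 5 to 17, so number and treatment are tied. Whole-gene Slc11a2 was 35.1 ± 5.13 CPM (SD, n = 6) in Control WT and 34.2 ± 4.75 CPM (SD, n = 5) in KD WT. In APP/PS1 mice its mean was 56.5 ± 13.5 CPM for the 5 KD libraries, beside 43.2 ± 3.93 CPM for the 6 Control libraries, with a log2 fold change of 0.39 ± 0.14 (edgeR adjusted p = 0.205), but this count includes exons outside the removed part and does not check the labels.

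The levels of the 41 genes spanned more than 3 orders of magnitude in Control WT microglia when divided by transcript length. Ldhb, the lactate dehydrogenase subunit that favours the conversion of lactate to pyruvate, stood first at 542 CPM per kb (range 458 to 676). Gapdh, which oxidises glyceraldehyde 3-phosphate, followed at 470 CPM per kb (393 to 611), and Aldoa, the aldolase of most tissues, at 335 CPM per kb (293 to 419). Slc2a5, the fructose transporter GLUT5 and a known marker of microglia, came next at 299 CPM per kb. The ranges of each of these 4 genes overlapped with the next in order, so their order among neighbours is not resolved. Ldha, the subunit that favours lactate production, was at 149 CPM per kb. At the other end stood Pfkp at 0.85, Eno2 at 0.59 and Pdk4 at 0.16 CPM per kb, the last of which had no counts in at least 1 Control WT and 1 KD WT library.

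Isoform families differed in how much a single gene carried. Shares here are among the members only. In Control WT libraries Slc2a5 made up 85.5 ± 3.96% (SD, n = 6) of the 4 hexose transporters per kb. Aldoa held 98.9 ± 0.50% of Aldoa and Aldoc together, and Eno1 99.5 ± 0.53% of Eno1 and Eno2 together. Eno3, an enolase outside the members and that share, was at 30.2 CPM in Control WT. Pfkl, the liver-type phosphofructokinase, was 88.1 ± 3.68% of its family. Hexokinase was shared between Hk3, at 57.6 ± 2.85%, and Hk2, at 34.7 ± 2.96%, with Hk1 at 7.69 ± 1.69%. Among the pyruvate dehydrogenase kinases, which switch off pyruvate dehydrogenase, Pdk1 held 57.9 ± 1.20% and Pdk4 0.39 ± 0.36%.

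Control APP/PS1 microglia were compared with Control WT, and KD APP/PS1 with KD WT, to ask how the amyloid genotype shifts these genes with and without the knockdown; the comparisons share no sample, though a single fit gave both their estimates of spread. In Control mice 19 members rose and 3 fell (edgeR's quasi-likelihood test, Benjamini-Hochberg adjusted p under 0.05 over all genes), where 5.99% of all genes tested rose and 4.48% fell. In KD mice 19 rose and 2 fell, with 9.77% and 6.41% of all genes called in those directions. Called without any overlap between groups were 18 members in Control mice, against 6.65% of all genes, and 16 in KD mice, against 5.96%. Gpi1, Pfkl, Aldoa, Tpi1, Gapdh, Pgk1, Pgam1, Eno1, Pkm, Ldha and the lactate transporter Slc16a3 rose, from 1.73-fold for Pgam1 to 2.97-fold for Tpi1 in Control mice, while the hexokinases did not pass the test and Slc2a5 and Ldhb fell. The median log2 fold change over the members was 0.33 in Control mice, beside -0.02 over all genes tested, and 0.34 beside -0.07 in KD mice. Called in both were 19 members, each in the same direction, with 3 in Control mice only and 2 in KD mice only, and 36 of 41 members had the same sign, which was 87.8% of members against 67.8% of all genes tested. Within libraries 18 to 23 alone, with 2 KD WT and 4 KD APP/PS1, all 21 members called in KD mice kept their sign and 10 were called by edgeR. These libraries are part of the same comparison, so a kept sign is partly built in. The share of all genes called in that fit is not given here. Members not called in it were Slc2a5 (edgeR adjusted p = 0.0535), Gpi1 (0.0755), Pfkl (0.206), Tigar (0.371), Eno1 (0.0503), Ldhb (0.139), Slc16a1 (0.252), Mpc2 (0.517), Pdk3 (0.429), Pgd (0.379) and Tkt (0.453).

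**Figure D1:**
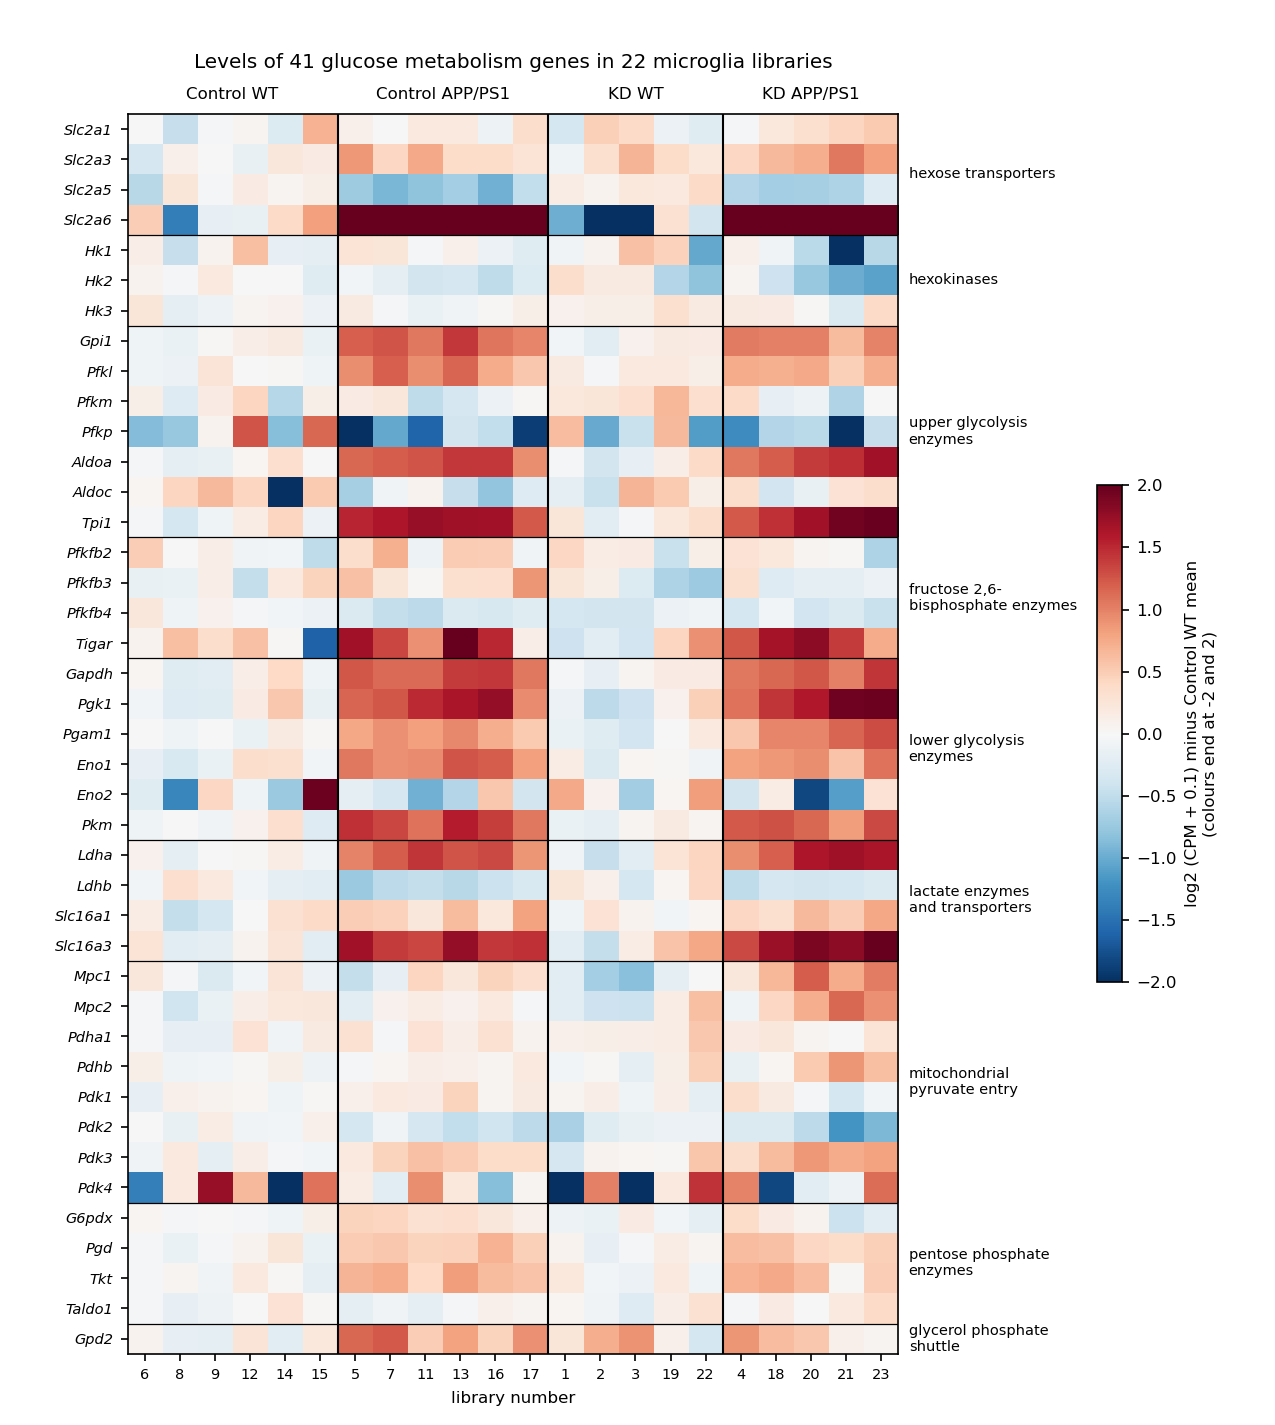
Levels of the 41 genes (rows, grouped by role) in 22 libraries (columns, by group), as log2(CPM + 0.1) minus the mean of the 6 Control WT libraries, with colours ending at -2 and 2. Slc2a6, Gpi1, Aldoa, Tpi1, Gapdh, Pgk1, Pkm, Ldha and Slc16a3 are above the Control WT mean in all 11 APP/PS1 libraries, and Slc2a5 and Ldhb are below it there.

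Promoters are shown for the 2 members with the largest rise and the 2 that fell with no overlap between groups in Control mice, as examples of genes that moved together or against the rest. They are the 250 bases before the transcription start in RefSeq (build GRCm38.p6, while the gene positions given elsewhere are GRCm39), from 5′ to 3′ on the gene's strand. Capitals mark ACGTG or GCGTG and their reverse complements CACGT and CACGC, the core letters known to be bound by hypoxia-inducible factors, whose targets include many glycolytic genes. Slc2a6 lies at chr2:27027999-27028248 on the minus strand and holds 4 such words, Tpi1 at chr6:124814159-124814408 on the minus strand and holds 0, Ldhb at chr6:142507958-142508207 on the minus strand and holds 1, and Pfkfb4 at chr9:108991652-108991901 on the plus strand and holds 1.
Slc2a6: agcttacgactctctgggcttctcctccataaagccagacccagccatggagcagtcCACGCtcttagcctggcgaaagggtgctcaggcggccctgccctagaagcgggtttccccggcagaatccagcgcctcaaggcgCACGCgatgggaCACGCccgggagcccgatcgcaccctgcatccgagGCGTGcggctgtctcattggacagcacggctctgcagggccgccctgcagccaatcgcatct
Tpi1: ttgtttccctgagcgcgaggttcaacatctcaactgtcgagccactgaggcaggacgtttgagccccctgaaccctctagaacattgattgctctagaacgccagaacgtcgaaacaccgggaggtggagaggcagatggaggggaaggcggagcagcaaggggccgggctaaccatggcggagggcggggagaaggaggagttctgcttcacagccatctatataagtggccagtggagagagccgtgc
Ldhb: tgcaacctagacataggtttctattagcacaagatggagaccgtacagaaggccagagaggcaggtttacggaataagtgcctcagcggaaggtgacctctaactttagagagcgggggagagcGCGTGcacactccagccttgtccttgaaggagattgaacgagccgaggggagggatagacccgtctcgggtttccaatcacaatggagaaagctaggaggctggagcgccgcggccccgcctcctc
Pfkfb4: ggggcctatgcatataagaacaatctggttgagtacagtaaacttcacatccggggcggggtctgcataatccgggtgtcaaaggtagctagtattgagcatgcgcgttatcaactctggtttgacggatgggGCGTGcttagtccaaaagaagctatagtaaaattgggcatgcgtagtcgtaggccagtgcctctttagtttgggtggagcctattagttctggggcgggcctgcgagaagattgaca
Such windows were found for 40 of the 41 members (59 windows, since some genes have several starts), and none for Slc2a3. At least 1 core word stood in 45 of the 59 windows, 76.3%, against 38.6% of all 32851 windows of this length, and CACGTG, the E-box word that contains ACGTG, in 10.2% against 6.02%. These words contain CG, and the median GC content was 61.2% in the members' windows and 52.4% in all windows. By gene, a core word was found in 15 of the 18 matched members that rose in Control mice, in 2 of the 3 that fell and in 18 of the 19 that did not pass the test. Over all 27026 genes with windows it was found in 41.5%. A match describes letters only.

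Among the hexose transporters, Slc2a6 (GLUT6, a transporter of intracellular membranes in macrophages; GRCm39 chr2:26911226-26918092, minus strand) had the largest change of all members. It was at 1.29 to 6.29 CPM in the 6 Control WT libraries (median 3.91) and at 20.4 to 30.8 CPM in the 6 Control APP/PS1 libraries (median 24.6). In KD WT libraries it was 0.79, 0.81, 1.74, 2.71 and 4.39 CPM, and in KD APP/PS1 20.8, 26.3, 28.1, 28.9 and 31.6 CPM. The groups did not overlap under either treatment. The log2 fold change was 2.69 ± 0.35 (SE) in Control mice (edgeR adjusted p = 1.02e-05) and 3.70 ± 0.41 in KD mice (adjusted p = 1.17e-06).

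Slc2a5 moved the other way. It ranged from 692 to 1198 CPM in Control WT (median 1081) and from 522 to 723 CPM in Control APP/PS1 (median 603), and from 1067 to 1324 CPM in KD WT and 638 to 854 CPM in KD APP/PS1. Control WT library 6, at 692 CPM, was the single WT library within the APP/PS1 range. Slc2a5 fell under both treatments, with log2 fold changes of -0.77 ± 0.12 (edgeR adjusted p = 7.11e-05) in Control and -0.75 ± 0.13 (adjusted p = 0.000332) in KD mice, and its share of the 4 transporters per kb went from 85.5 ± 3.96% to 72.9 ± 1.46% in Control mice. Slc2a1 (GLUT1, the common glucose transporter) was at 190 ± 57.1 CPM in Control WT and 201 ± 22.7 CPM in Control APP/PS1 (SD, n = 6 each) and did not pass the test under either treatment. Slc2a3 (GLUT3, the high-affinity glucose transporter of neurons) rose by a log2 fold change of 0.52 ± 0.14 in Control mice (adjusted p = 0.0206), but was not past the threshold without library 5, 6 or 11 (adjusted p 0.0559 to 0.0635), without libraries 12 and 15 together or after correcting for GC content and transcript length, and its value in KD mice, 0.44 ± 0.16 (adjusted p = 0.0616), passed without library 3 or 4 (0.0306 and 0.0221), by DESeq2, with a filter of 10 counts in every sample and after the GC and length correction.

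None of the 3 hexokinases, which trap glucose as glucose 6-phosphate, was called in either comparison by edgeR's main fit. Hk3, the most abundant per kb, had log2 fold changes of 0.01 ± 0.10 in Control and -0.05 ± 0.11 in KD mice. Hk2, the inducible form, was 174 ± 17.1 CPM in Control WT and 143 ± 15.4 CPM in Control APP/PS1, and its value in KD mice, -0.52 ± 0.20 (adjusted p = 0.0864), passed the threshold without library 4, 19 or 22 (adjusted p 0.00746 to 0.0436) and was called by DESeq2 and limma voom. In Control mice Hk2 was called when only the groups compared were fitted and after correcting for GC content and transcript length, and its value was below 0 in every alternative. Hk2 also differed between KD libraries by number: 198 to 223 CPM in KD WT libraries 1 to 3 and 99.1 and 115 CPM in libraries 22 and 19.

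From glucose 6-phosphate down to the triose phosphates, 4 of 7 genes rose under both treatments. Tpi1, which interconverts the triose phosphates (GRCm39 chr6:124787549-124791273, minus strand), was at 90.6 to 156 CPM in Control WT (median 111) and 272 to 386 CPM in Control APP/PS1 (median 362). The KD WT libraries were at 98.4, 114, 133, 136 and 148 CPM and the KD APP/PS1 libraries at 271, 318, 370, 438 and 452 CPM. No WT library reached the level of any APP/PS1 library, with log2 fold changes of 1.57 ± 0.14 (adjusted p = 5.43e-08) and 1.55 ± 0.16 (4.23e-07) in Control and KD mice. Aldoa was at 389, 447, 496, 550 and 653 CPM in KD WT and 1042, 1167, 1329, 1395 and 1610 CPM in KD APP/PS1, a log2 fold change of 1.37 ± 0.14 (adjusted p = 6.54e-07). Gpi1, the isomerase after hexokinase, rose from 203 ± 19.2 to 454 ± 51.0 CPM in Control mice and from 207 ± 23.8 to 389 ± 41.8 CPM in KD mice, where library 21 was lowest at 315 CPM. Pfkl rose by a log2 fold change of 0.93 ± 0.11 in Control and 0.55 ± 0.12 in KD mice. The other isoforms of these steps did not pass edgeR's main fit. In Control mice Pfkm, the muscle-type enzyme, was at -0.11 ± 0.19 and Pfkp, the platelet type, at -1.50 ± 0.54 (edgeR adjusted p = 0.0811). Pfkp was called by DESeq2 and with a filter of 10 counts in every sample. Aldoc, the aldolase of astrocytes and neurons, was at -0.55 ± 0.31 and passed without library 14 alone (edgeR adjusted p = 0.0272).

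Fructose 2,6-bisphosphate activates phosphofructokinase, and its enzymes did not move as a group. Pfkfb4, a kinase and phosphatase for this metabolite (GRCm39 chr9:108820832-108862847, plus strand), was at 70.5 to 89.1 CPM in Control WT (median 74.1) and 53.4 to 64.9 CPM in Control APP/PS1 (median 61.7), with no overlap and a log2 fold change of -0.36 ± 0.10 (adjusted p = 0.0158). In KD mice its value was -0.05 ± 0.10, with 59.2, 59.3, 59.9, 70.6 and 72.6 CPM in KD WT and 56.3, 58.5, 60.1, 62.4 and 73.8 CPM in KD APP/PS1, which overlapped. Pfkfb3, the isoform with the strongest kinase activity, was 138 ± 30.5 CPM in Control WT and 182 ± 39.8 CPM in Control APP/PS1 (log2 fold change 0.40 ± 0.18, edgeR adjusted p = 0.167, called by limma voom). Pfkfb2 was at 2.62 ± 0.61 and 3.29 ± 0.74 CPM in these groups. Tigar, a phosphatase that lowers fructose 2,6-bisphosphate and favours the pentose phosphate pathway, rose by 1.24 ± 0.33 in Control mice (adjusted p = 0.0166) and 1.26 ± 0.37 in KD mice (adjusted p = 0.0208), with overlapping groups in both. Tigar was at 6.42 ± 2.58 CPM in Control WT, and its call was lost without library 13 in Control mice (adjusted p = 0.0532) and without library 1, 2, 3 or 20 in KD mice (0.0565 to 0.0630) or there with a term for libraries 18 to 23.

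In lower glycolysis 5 of 6 genes rose in both comparisons, each with no overlap between groups. Gapdh was at 588, 644, 684, 741 and 742 CPM in KD WT and 1329, 1377, 1468, 1565 and 1769 CPM in KD APP/PS1, and Pkm, the pyruvate kinase of microglia and most tissues, at 378, 390, 444, 445 and 484 CPM and 765, 948, 998, 1034 and 1065 CPM. For both genes the lowest KD APP/PS1 library stood well above the highest KD WT library. The log2 fold changes in Control and KD mice were 1.22 ± 0.11 and 1.14 ± 0.12 for Gapdh, and 1.31 ± 0.12 and 1.17 ± 0.13 for Pkm. Pgk1, the first ATP-yielding step, rose by 1.37 ± 0.19 and 1.69 ± 0.21, Pgam1, which moves the phosphate group, by 0.79 ± 0.12 and 1.12 ± 0.13, and Eno1, which forms phosphoenolpyruvate, by 1.02 ± 0.12 and 0.89 ± 0.13. Eno2, the neuronal enolase, had a mean under 2 CPM in every group and did not pass. The 13 enzymes from Gpi1 to Pkm held 0.25 ± 0.036% of the TMM-scaled library total in Control WT and 0.59 ± 0.064% in Control APP/PS1 (SD, n = 6 each). In KD mice they held 0.26 ± 0.030% in WT and 0.58 ± 0.062% in APP/PS1 (SD, n = 5 each).

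**Figure D2:**
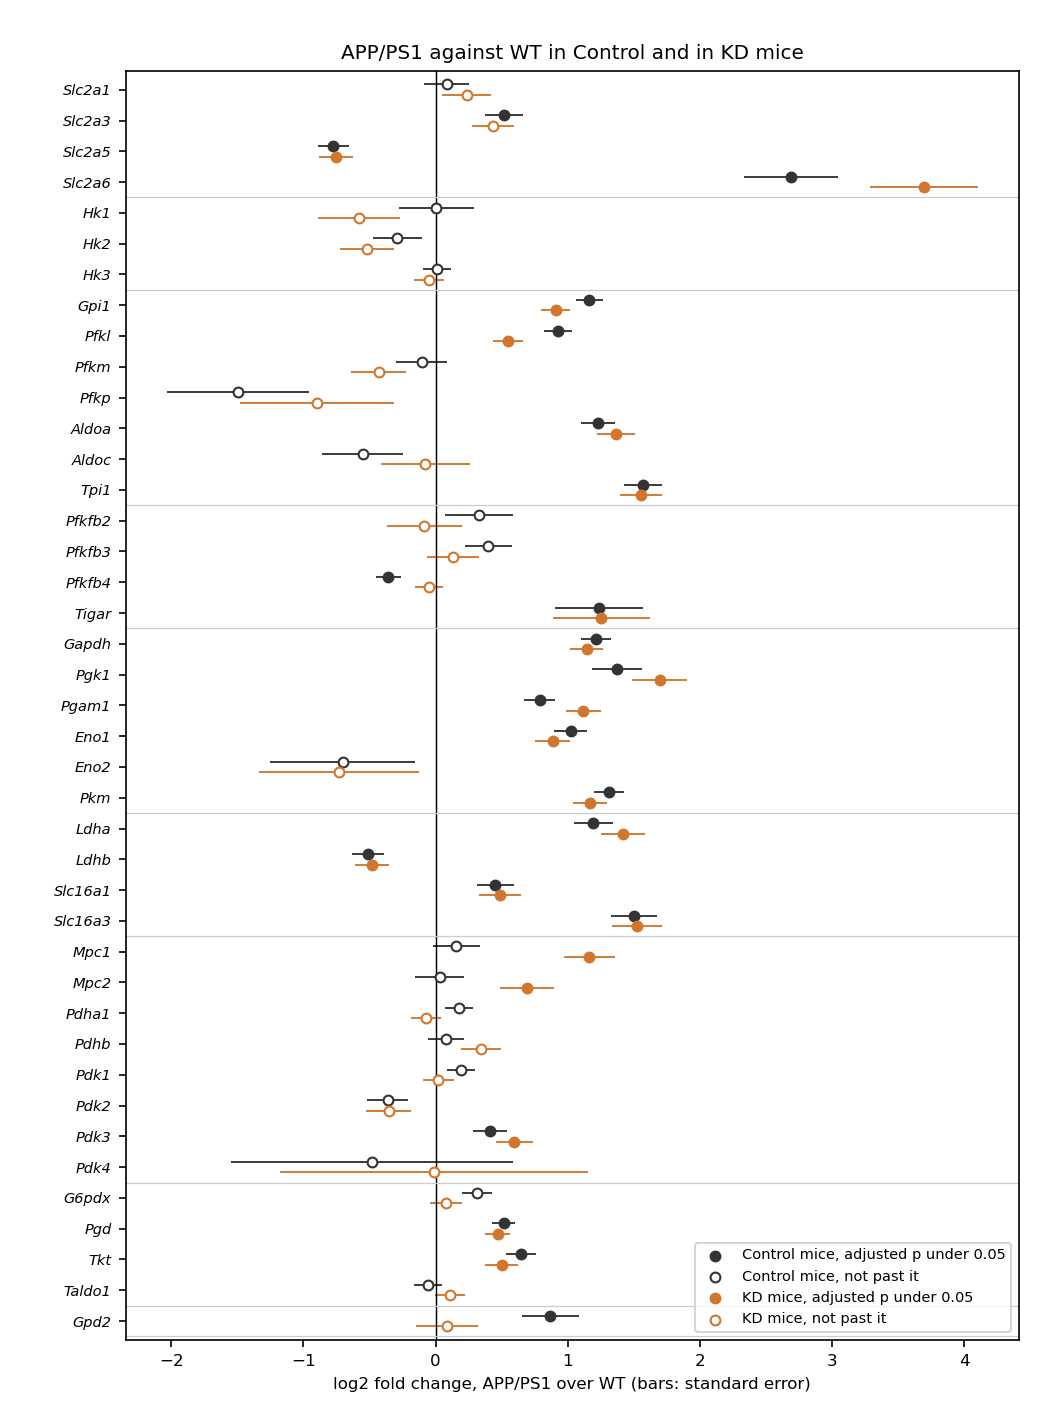
Log2 fold change of APP/PS1 over WT for each of the 41 genes (points; bars are standard errors) in Control mice (black) and KD mice (orange), filled where the edgeR adjusted p was under 0.05. The filled points on the right run through Gpi1, Pfkl, Aldoa, Tpi1, Gapdh, Pgk1, Pgam1, Eno1, Pkm, Ldha and Slc16a3 for both treatments, Slc2a6 lies farthest right, and Mpc1 is filled for KD mice only.

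The gene models of several members overlap other genes, and the strand used in counting is not given in the sources used here. On GRCm39 (GENCODE M39), other gene models on the same strand cover 86.1% of the Aldoa transcript and 41.2% of Pfkfb2. Opposite another gene lie 81.5% of Gapdh, 52.4% of Slc16a3, 42.5% of Pfkp, 31.6% of Pkm and 29.4% of Ldha. The same holds for 24.5% of Mpc1, 24.2% of Pfkl, 22.6% of Mpc2, 22.2% of Pdhb, 21.1% of Pdha1 and 19.3% of Tpi1. Reads in bases shared by opposite genes cannot be told apart without strand, and those shared on the same strand not even with it. The authors counted against GENCODE M31, in which a given overlapping model may be absent. How such reads entered the counts was not tested. Near-identical annotated copies of Aldoa, Pgk1, Ldhb, Pgam1 and Eno1 held between 0.022% and 0.35% as many counts as their genes, and with the counts of Eno1b added the log2 fold change of Eno1 in Control mice was 0.999 in place of 1.02, the largest such shift of the 5.

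Ldha and Ldhb, which form lactate dehydrogenase together, moved in opposite directions. Ldha (GRCm39 chr7:46490899-46505061, plus strand) was at 206 to 261 CPM in Control WT (median 238) and 436 to 636 CPM in Control APP/PS1 (median 557). Ldhb (GRCm39 chr6:142435672-142454586, minus strand) was at 701 to 1034 CPM in Control WT (median 792) and 490 to 667 CPM in Control APP/PS1 (median 582). Neither pair of Control groups overlapped. Ldha rose by a log2 fold change of 1.19 ± 0.15 (adjusted p = 4.66e-06) and Ldhb fell, at -0.51 ± 0.12 (adjusted p = 0.00514). In KD mice Ldha was at 171, 204, 225, 286 and 316 CPM in WT and 447, 541, 725, 733 and 764 CPM in APP/PS1 (log2 fold change 1.42 ± 0.16), and Ldhb at 641, 846, 882, 970 and 1094 CPM in WT and 576, 636, 647, 653 and 670 CPM in APP/PS1. For Ldhb the KD groups overlapped through KD WT library 3, at 641 CPM, and the call (-0.48 ± 0.13, adjusted p = 0.0129) was lost when the KD groups were fitted alone or from libraries 18 to 23 alone (edgeR adjusted p = 0.139 in the latter). Per kb, the ratio of Ldha to Ldhb was 0.28 ± 0.056 in Control WT and 0.90 ± 0.14 in Control APP/PS1, and 0.26 ± 0.058 in KD WT and 0.97 ± 0.18 in KD APP/PS1.

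**Figure D3:**
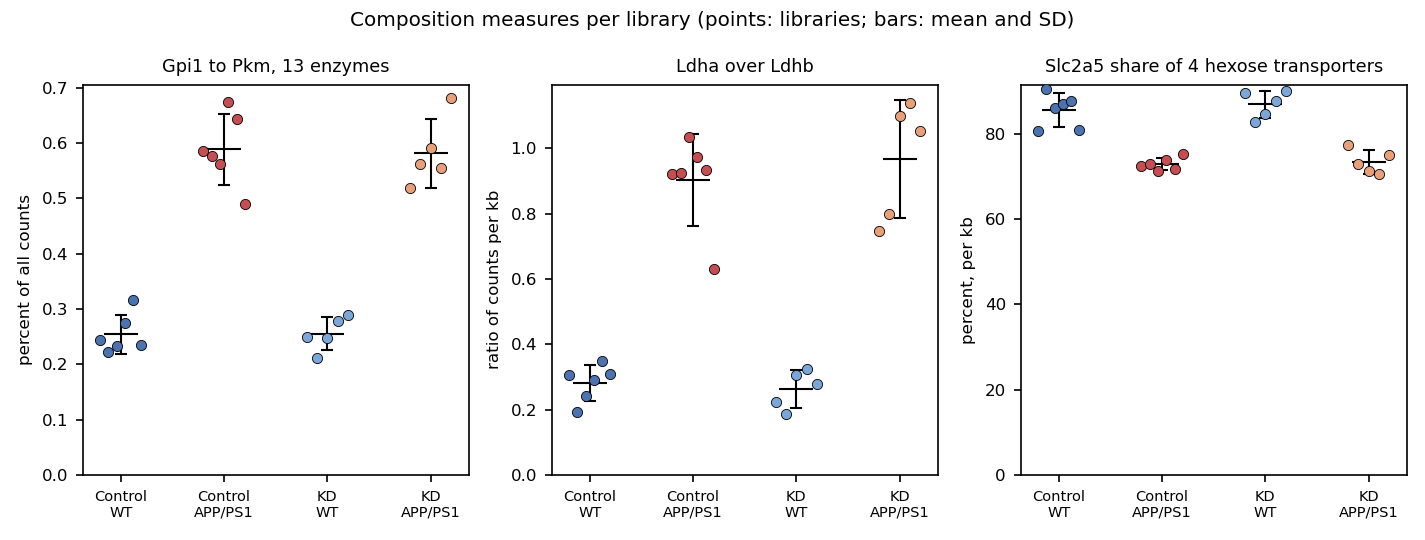
Percent of the TMM-scaled library total, labelled percent of all counts, held by the 13 enzymes from Gpi1 to Pkm (left), ratio of Ldha to Ldhb counts per kb (middle) and Slc2a5 as a percent of the 4 hexose transporters per kb (right), with a point for each library and the group mean and SD. In the left panel no WT library is above 0.32% and no APP/PS1 library below 0.49%. In the middle panel the highest WT library is at 0.35 and the lowest APP/PS1 library at 0.63.

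Of the monocarboxylate transporters, Slc16a3 (MCT4, a low-affinity transporter that exports lactate; GRCm39 chr11:120838846-120851694, plus strand) was at 68.2 to 95.1 CPM in Control WT (median 76.4) and 199 to 267 CPM in Control APP/PS1 (median 214). The KD WT libraries were at 56.6, 68.4, 87.6, 118 and 135 CPM and the KD APP/PS1 libraries at 198, 261, 274, 290 and 316 CPM. Neither treatment showed an overlap, and the log2 fold changes were 1.501 ± 0.17 (adjusted p = 1.54e-06) and 1.52 ± 0.19 (adjusted p = 6.15e-06). Slc16a1 (MCT1, which carries lactate in both directions) rose less, by 0.45 ± 0.14 (adjusted p = 0.0433) and 0.49 ± 0.16 (adjusted p = 0.0364). The call on Slc16a1 was lost without any of 8 libraries in Control mice (5, 6, 7, 8, 9, 12, 13 or 17; adjusted p 0.0541 to 0.113) and 6 in KD mice (1, 3, 19, 20, 21 or 23; 0.0584 to 0.0943). It was also lost in Control mice with DESeq2 size factors, with the stricter count filter, with library 10 kept and after correcting for GC content and length, and in KD mice by limma voom, with a term for libraries 18 to 23 and with only the groups compared. Its share of these 2 transporters per kb was 29.7 ± 4.60% in Control WT and 17.04 ± 2.13% in Control APP/PS1.

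**Figure D4:**
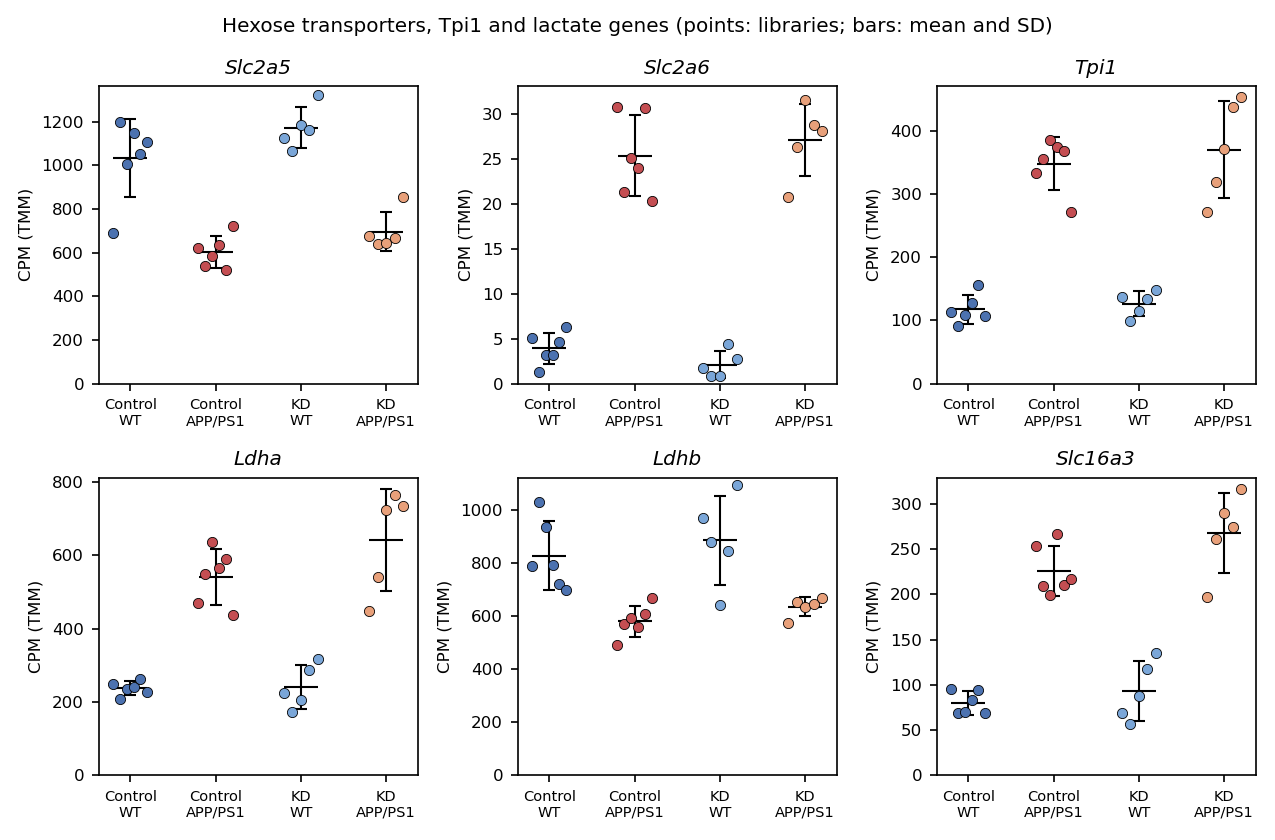
CPM of Slc2a5, Slc2a6, Tpi1, Ldha, Ldhb and Slc16a3 in each of 22 libraries (points), with the mean and SD of each group of 5 or 6. APP/PS1 libraries are all above the WT libraries for Slc2a6, Tpi1, Ldha and Slc16a3, and most are below them for Slc2a5 and Ldhb.

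The genes of pyruvate entry into mitochondria gave 1 call of 8 in Control mice and 3 of 8 in KD mice, all of them higher. Of all genes tested, 5.99% were called higher in Control mice and 9.77% in KD mice. Mpc1 and Mpc2 form the mitochondrial pyruvate carrier. In Control mice their log2 fold changes were 0.16 ± 0.18 and 0.03 ± 0.19, and in KD mice 1.16 ± 0.20 (adjusted p = 0.000256) and 0.69 ± 0.20 (adjusted p = 0.0232). Mpc1 was at 57.4, 63.8, 88.4, 90.7 and 102 CPM in KD WT and 121, 163, 172, 209 and 237 CPM in KD APP/PS1, without overlap, and within libraries 18 to 23 alone, with 2 KD WT and 4 KD APP/PS1, its log2 fold change was 1.01 ± 0.21 (adjusted p = 0.0392). Mpc2 was at 33.54, 33.96, 39.35, 50.5 and 69.1 CPM in KD WT and 42.7, 60.2, 75.4, 86.0 and 101 CPM in KD APP/PS1. These overlapped, and the Mpc2 call was lost without library 1, 2, 3, 21 or 23 (adjusted p 0.0618 to 0.0965) and within libraries 18 to 23 (0.42 ± 0.24, adjusted p = 0.517), as well as with library 10 kept, with a term for libraries 18 to 23, with only the groups compared and after the GC and length correction.

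Pdk3, a kinase that inactivates pyruvate dehydrogenase, was the member of this group that rose under both treatments, by 0.41 ± 0.13 (adjusted p = 0.0386) and 0.59 ± 0.14 (adjusted p = 0.00541). In Control mice that call was lost without any of 9 libraries (6, 7, 9, 11, 13, 14, 15, 16 or 17; adjusted p 0.0568 to 0.0960), and also without libraries 12 and 15 together, with DESeq2 size factors in edgeR and with a filter of 10 counts in every sample. The dehydrogenase subunit genes Pdha1 and Pdhb were at 0.18 ± 0.11 and 0.08 ± 0.14 in Control mice, and Pdhb at 0.34 ± 0.15 in KD mice (adjusted p = 0.126), which passed without library 4 or 22 (0.0189 and 0.0312). Pdk1 had 0.19 ± 0.11 in Control mice and Pdk2 -0.36 ± 0.15 (edgeR adjusted p = 0.143). Pdk2 was called there by limma voom, with only the groups compared and after the GC and length correction. Pdk4 stayed under 2 CPM in every library. Pdk2 made up 16.2 ± 1.58% of the kinases per kb in Control WT and 11.2 ± 1.46% in Control APP/PS1.

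Of the pentose phosphate enzymes, Pgd, the second NADPH-yielding step, and Tkt, a transketolase of the non-oxidative branch, rose under both treatments. Pgd was at 148 to 194 CPM in Control WT and 222 to 264 CPM in Control APP/PS1, and at 146 to 181 and 210 to 249 CPM in the KD groups, with no overlap (log2 fold changes 0.52 ± 0.09 and 0.47 ± 0.09). Tkt rose by 0.65 ± 0.11 and 0.50 ± 0.12, and overlapped in KD mice. G6pdx, which makes the entry to the pathway, was 58.6 ± 2.88 CPM in Control WT and 72.7 ± 6.35 CPM in Control APP/PS1, with adjusted p = 0.0828 in edgeR. It was called by limma voom, with a term for libraries 18 to 23 and with only the groups compared. Taldo1 had -0.06 ± 0.10. Gpd2, which passes electrons from cytosolic glycerol phosphate to the respiratory chain, was at 5.22 to 7.28 CPM in Control WT and 8.25 to 14.3 CPM in Control APP/PS1 with no overlap, and rose by 0.87 ± 0.22 (adjusted p = 0.00940). In KD mice Gpd2 was at 4.71, 6.49, 7.19, 10.1 and 11.4 CPM in WT and 6.27, 6.49, 8.86, 9.35 and 11.2 CPM in APP/PS1, and its log2 fold change was 0.08 ± 0.23.

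A wider list of 62 further genes of the same steps, 47 of which were in the table, gave 5 genes higher and 5 lower in Control mice and 10 higher and 3 lower in KD mice. Over all genes tested, 5.99% were higher and 4.48% lower in Control mice, and 9.77% and 6.41% in KD mice. The median log2 fold change of the wider list was -0.06 and 0.07, beside -0.02 and -0.07 over all genes. Got1, the cytosolic aspartate aminotransferase of the malate-aspartate shuttle, rose by 1.78 ± 0.14 and 1.37 ± 0.15, and Pgm1, which links glycogen to glucose 6-phosphate, by 0.65 ± 0.13 and 0.61 ± 0.14. Rpia, which isomerises ribose 5-phosphate, rose by 0.47 ± 0.14 and 0.60 ± 0.15. Eno3, the muscle enolase, fell by 1.51 ± 0.20 and 1.35 ± 0.21, and Gpd1l, a cytosolic glycerol phosphate dehydrogenase, by 0.46 ± 0.08 and 0.36 ± 0.09. These 5 genes are those of the wider list called under both treatments.

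KD WT microglia were compared with Control WT to ask what the knockdown does without amyloid. This comparison and the 2 that follow use the same groups as those above, so their values are given side by side. No member was called (smallest adjusted p 0.715), nor was any gene of all tested (0%), and DESeq2 and limma voom called no member either. At an unadjusted p under 0.05 there were 2 members, Slc2a6 and Pfkfb4, against 5.92% of all genes. Pfkfb4, at 70.5, 71.7, 73.9, 74.2, 80.8 and 89.1 CPM in Control WT beside the KD WT values above, had a log2 fold change of -0.25 ± 0.10 (adjusted p = 0.715), with KD WT libraries 19 and 22 within the Control WT range and the other 3 below it. Slc2a6 had -0.91 ± 0.37 (adjusted p = 0.715), with groups that overlapped. The fitted values of the other members ran from -0.37 for Mpc1 to 0.38 for Gpd2.

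KD APP/PS1 microglia were compared with Control APP/PS1 to ask what the knockdown does in the presence of amyloid. Again edgeR called no member (smallest adjusted p 0.205), nor any gene of all tested (0%). Limma voom called 0 members and DESeq2 called 2. The share of all genes called by DESeq2 is not given here. The study's own DESeq2 analysis of this comparison reported genes changed in both directions. At an unadjusted p under 0.05 there were 8 members, against 20.6% of all genes, so the members' share was near that of all genes. Mpc1 and Mpc2 had the smallest p. Mpc1 was at 73.9, 91.8, 120, 129, 139 and 140 CPM in Control APP/PS1, and Mpc2 at 38.6, 44.6, 48.2, 48.3, 50.3 and 52.1 CPM, beside the KD APP/PS1 values above. For both genes KD APP/PS1 library 4 lay within the Control APP/PS1 range and the other 4 KD libraries lay above it. The log2 fold change was 0.64 ± 0.18 for Mpc1 and 0.63 ± 0.19 for Mpc2, each with an edgeR adjusted p of 0.205, against 0.0495 for each in DESeq2.

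Those values moved with the libraries taken in. Library 4 is the KD APP/PS1 library that the study described as differing from the rest of its group, without treating it as an outlier. Without library 4, 7.34% of all genes were called higher and 9.07% lower, and 3 members were called higher, Mpc1 (0.76 ± 0.18, adjusted p = 0.0202), Mpc2 (0.78 ± 0.18, 0.0202) and Pdhb (0.46 ± 0.13, 0.0264), and 2 lower, Pfkfb3 (-0.61 ± 0.19, 0.0360) and G6pdx (-0.40 ± 0.11, 0.0249). These 3 and 2 of 41 members are shares no higher than those of all genes, in a fit of 4 against 6 libraries, and 4 of the 8 genes of pyruvate entry had values below 0 in it (Pdha1, Pdk1, Pdk2 and Pdk4). Library 10, the Control APP/PS1 library left out, had 245 CPM of Mpc1, above all 5 KD APP/PS1 libraries, and 92.2 CPM of Mpc2, and with it kept the log2 fold changes were 0.43 and 0.45. With a term for libraries 18 to 23 they were 0.17 for Mpc1 and -0.06 for Mpc2. The KD WT libraries with those numbers also had more Mpc2, 50.5 and 69.1 CPM, against 33.54 to 39.35 CPM in libraries 1 to 3. No Control library carries a number from 18 to 23, and the labels do not say whether these numbers mark a batch, so library number and knockdown cannot be told apart there.

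**Figure D5:**
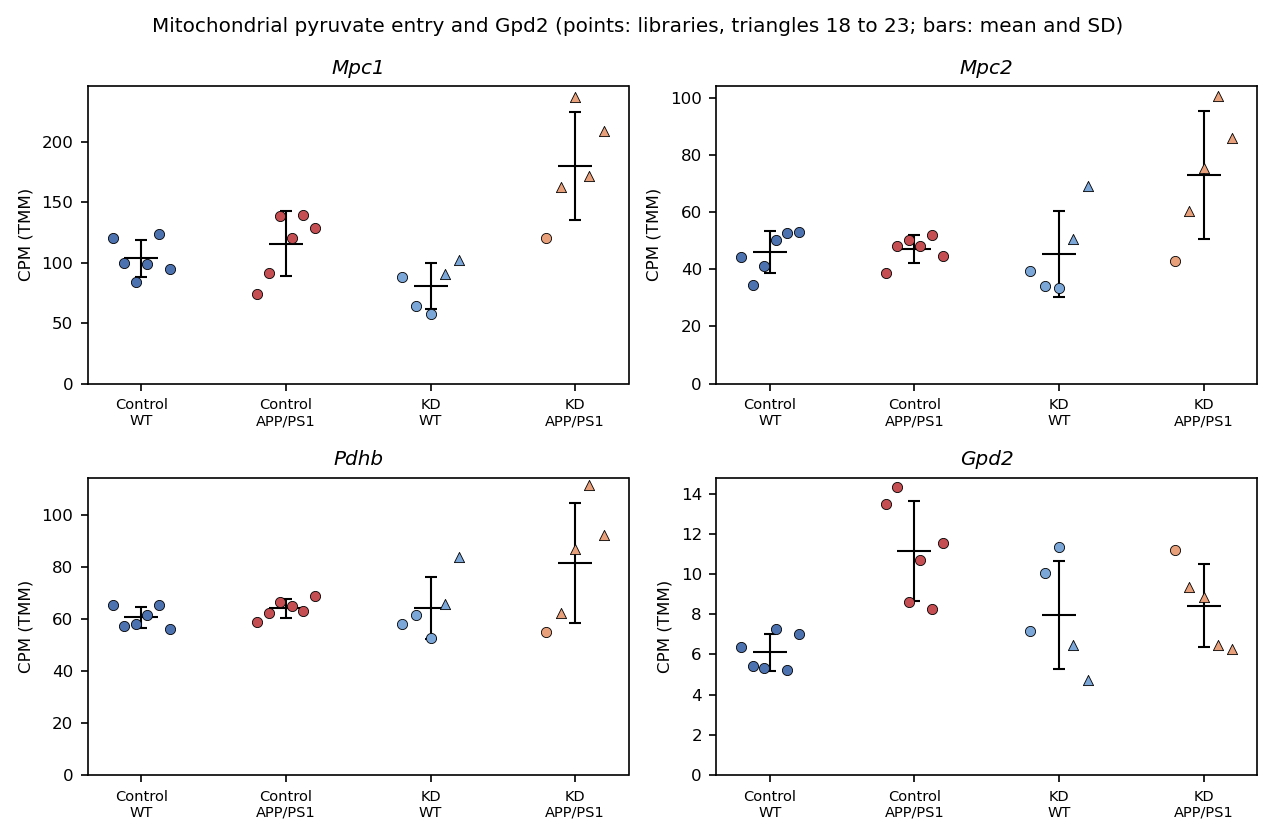
CPM of Mpc1, Mpc2, Pdhb and Gpd2 in each library (circles, and triangles for libraries 18 to 23), with the mean and SD of each group. The 4 KD APP/PS1 libraries drawn as triangles are above all 6 Control APP/PS1 libraries for Mpc1 and Mpc2, the fifth, library 4, is not, and for Gpd2 the groups overlap except Control WT against Control APP/PS1.

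Whether the APP/PS1 difference itself depended on the knockdown was tested with the interaction term, and no member passed (smallest adjusted p 0.544; 0 members by DESeq2 and by limma voom), nor any gene of all tested (0%). There were 5 members at an unadjusted p under 0.05, against 9.08% of all genes: Mpc1, Gpd2, Pfkl, Mpc2 and Pfkfb4. Mpc1 had an interaction of 1.01 ± 0.26 on the log2 scale and Gpd2 of -0.78, each with adjusted p = 0.544, in the direction of the fold changes given above. The 2 members with the largest rise in Control mice, Slc2a6 and Tpi1, had interactions of 1.01 ± 0.50 and -0.02 ± 0.21.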

How the data were processed

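Bulk RNA-seq of CD11b+ hippocampal cells was analysed from the raw counts per gene that the authors deposited. Per the study's methods and processing notes, reads were trimmed with Trim Galore 0.6.7, aligned with STAR to mm39 and counted against GENCODE M31, and genes with low counts were removed. The strand counted was not given in the sources used here. The authors also deposited the counts divided by a DESeq2 1.36.0 size factor per sample, a signal on the count scale, which was not used for any test. Library 10 was left out, as in the study.

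Groups came from the sample labels, which call KD mice KO and non-APP/PS1 mice Control. Counts were fitted in edgeR 4.0.16 (R 4.3.3) for all 4 groups in a single quasi-likelihood model with TMM scaling and no covariate, after a filter that asked for a count of 5 or more in 3 or more libraries. A gene was called at a Benjamini-Hochberg adjusted p under 0.05 over all genes tested, and errors of log2 fold changes are standard errors. The fit was tested on simulated counts. Levels are TMM-scaled CPM, divided by canonical transcript length (GENCODE M39, GRCm39) to compare genes. Libraries were biological replicates per the study, without labels that tie them to animals. With a depth of at least 31128600 counts, counting error is small except for members near 1 CPM. Alternatives were DESeq2 1.42.0, limma 3.58.1 voom with quality weights, other filters, scalings, sample sets and terms, and each library left out in turn.

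The members and lists were chosen with earlier results of these data known. Values by sample (lowest, median and highest in groups of 6) are given for the 3 members with the largest and 3 with the smallest called change without overlap in Control mice (only 2 fell so), and for up to 4 members with the smallest p in each other comparison, or 2 where none was called. Slc2a5, Ldha, Mpc2 and Gpd2 in further comparisons were added after their values were seen. Microglial marker Fcrls, neuronal Gad2 and lymphocyte Cd3e were not analysed here.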

Additional observations from a re-analysis of the deposited data

Results flagged for a closer look

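Among the 164 sets of 5 or 6 libraries tested (41 genes in 4 groups), 14 held a library far from the others of its group by Dixon's test at the 95% level, where chance gives about 1 in 20. In Control WT, library 15 had 297 CPM of Slc2a1, the glucose transporter GLUT1, with the others at 133 to 192, and 4.99 CPM of Eno2 with the others at 0.43 to 1.65, and it is also a library with high choroid plexus markers, whose part was not tested. Also in Control WT, library 9 had 109 CPM of Pfkl (others 84.2 to 93.0) and library 14 had 244 CPM of Taldo1 (others 178 to 202). In Control APP/PS1, Pdk1 was at 172 CPM in library 13, Pdk2 at 14.6 CPM in library 7 and Pgd at 264 CPM in library 16, each the highest of its group.

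In KD WT, Pfkm was highest in library 19 at 13.6 CPM and Pdha1 in library 22 at 88.6 CPM, while Pdk2 was lowest in library 1 at 9.81 CPM. In KD APP/PS1, library 21 was lowest for Gpi1 at 315 CPM and Pfkl at 126 CPM, library 23 highest for Slc2a5 at 854 CPM, and library 4 highest for Pfkfb3 at 168 CPM with the others at 113 to 124 CPM.

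Library 10, the Control APP/PS1 library outside the comparisons, was above all 12 Control libraries used for 6 members. It had 828.996 CPM of Ldha (highest of the others 636), 245 CPM of Mpc1 (140) and 92.2 CPM of Mpc2 (53.0), and for Pdhb 98.9 CPM (68.9), Pgam1 154 CPM (138) and Pdk3 42.3 CPM (38.8). Against the 6 Control APP/PS1 libraries used, it was above the range for 9 members, below it for 18 and within it for 14. Its lymphocyte markers summed to 843 CPM, against 309 to 387 CPM in those 6.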

How the results depend on the processing

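Of the members called, 18 of 22 in Control mice and 10 of 21 in KD mice were called in every alternative that changed the samples, filter, scaling, tool or terms, and all 22 and 21 kept their sign. With a further cut of 1 on the size of the log2 fold change there were 11 higher and 0 lower in each of Control and KD mice, and of the other pathway genes 6 and 2. The share of all genes is not given here for that cut or for libraries 18 to 23 alone. Fitting only the groups compared gave 5 lower in Control and 1 lower in KD mice, and 4 other pathway genes in KD mice. A correction for transcript length and GC content, chosen after seeing the data, gave 5 lower in Control mice. Libraries 18 to 23 alone, with 6 samples, gave 10 higher and 0 lower in KD mice and 1 other pathway gene, and a term for them gave 7 other pathway genes and -0.056 for Mpc2 in KD against Control APP/PS1. In that comparison DESeq2 called 2 members and 5 were called without KD APP/PS1 library 4. Leaving out each library in turn gave 16 to 18 higher and 3 to 4 lower members in Control mice, 16 to 21 and 2 to 3 in KD mice, 0 to 5 for KD against Control APP/PS1, 0 for KD against Control WT and for the interaction, and 8 to 10 and 9 to 14 other pathway genes in Control and KD mice. Where no cause is named, the cause was not tested. No paired analysis was possible because each library number occurs once and no group shares one with another.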
